A study of Mus musculus with 4 samples.

Results

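The genes described are 10 of the insulin and insulin-like growth factor (IGF) system, picked by name for their place in the pathway and matched by symbol among the 45777 genes of the joint table. They are the ligands Igf1 and Igf2, the receptors Insr, Igf1r and Igf2r, the adaptors Irs1 and Irs2, the PI3-kinase subunit Pik3r1 and the receptor-binding proteins Grb10 and Grb14. All 10 were found once each. RNA came from C2C12 myotubes, multinucleate muscle cells formed in culture by a mouse myoblast line, in DMEM with 2% horse serum. Clenbuterol, a β2-adrenergic agonist, was set against a control of its own, and EPS, read here as electrical pulse stimulation, against another. With a single library in each of the 4 groups, no difference below has a replicate or a test. The treatment field of all 4 libraries, controls included, reads clenbuterol at 30 ng/ml, and groups were therefore taken from the titles. Neither the length of treatment nor the pulse settings is given in the sources used here. For the EPS pair the titles and the names of the deposited data are crossed. Each of those libraries is named by its title ("titled EPS", "titled EPS control"), and the direction of each EPS difference is the opposite if the data names are the correct ones.

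Insulin and the IGFs act through a shared relay. INSR and IGF1R are tyrosine kinases that phosphorylate the adaptors IRS1 and IRS2, these recruit PI3-kinase through its regulatory subunit, and the AKT kinases act downstream to raise glucose uptake and protein synthesis. In muscle the route is known for growth and for insulin-stimulated glucose disposal. IGF2R, by contrast, has no kinase and carries IGF2 to the lysosome for breakdown. Igf2, Igf2r and Grb10 are imprinted genes in the mouse.

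The cultures carried the transcripts of muscle cells. All 14 myotube markers reached 1 TPM, the transcript level corrected for gene length and library size, in each library, with summed levels of 19914 TPM with clenbuterol, 19307 in its control, 12617 in titled EPS and 17313 in titled EPS control. Markers of undifferentiated or dividing myoblasts summed to between 240.5 and 314 TPM, with Id3 the largest part in the clenbuterol library (116 TPM). Ptprc, Adgre1 and Cd3e of the 4 immune markers and all 3 adipocyte markers were listed at 0 in every library, and the 3 endothelial markers summed to no more than 0.222 TPM. Of 3 neural markers only Map2 reached 1 TPM and Rbfox3 was listed at 0, while 3 of 5 fibroblast markers did so in each library, led by Dcn, at a sum of 217 to 237 TPM. Total estimated counts ran from 32640884 to 35597074 per library. In bulk RNA, fewer cells of a type and less RNA per cell cannot be told apart.

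The adaptors hold the largest difference of these genes, and so their promoters are the ones printed. Promoter windows, from 250 bases before to 50 after a start site, came from RefSeq on GRCm38.p6 and were found for 9 of the 10 genes, as 14 windows. In the windows of Irs2 (chr8:11008880-11009179, minus strand) and Irs1 (chr1:82291390-82291689, minus strand), capitals mark CACGTG (an E-box), CAAAACA (the core of the insulin response element, described for FOXO factors in the IGFBP1 promoter) and TGACG (the core of the cyclic AMP response element, CRE), each on either strand.
Irs2: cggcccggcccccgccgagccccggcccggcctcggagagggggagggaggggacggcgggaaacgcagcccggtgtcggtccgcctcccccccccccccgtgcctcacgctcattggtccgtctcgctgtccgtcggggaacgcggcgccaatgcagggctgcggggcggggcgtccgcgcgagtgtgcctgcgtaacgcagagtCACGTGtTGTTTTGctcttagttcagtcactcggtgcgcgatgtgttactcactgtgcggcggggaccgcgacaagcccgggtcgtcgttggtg
Irs1: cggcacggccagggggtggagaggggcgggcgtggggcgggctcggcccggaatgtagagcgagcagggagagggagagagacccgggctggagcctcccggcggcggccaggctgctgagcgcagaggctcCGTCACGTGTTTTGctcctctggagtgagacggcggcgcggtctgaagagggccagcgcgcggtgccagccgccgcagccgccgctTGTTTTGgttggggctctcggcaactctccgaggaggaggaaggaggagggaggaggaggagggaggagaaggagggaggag
In Irs2 the E-box began 44 bases before the start site and the insulin response core 37 bases before it. In Irs1 the E-box began 115 bases before the start, with insulin response cores at 111 and 32 bases before it, and TGACG, on the other strand, overlapped the E-box from 118 bases before it. TGACG was not among the letters of the Irs2 window, and neither window held the full palindrome TGACGTCA or the FOXO motif GTAAACA. The E-box was not confined to the adaptors. The Igf2r window held 2 matches of CACGTG and 3 of TGACG, overlapping there too as CGTCACGTG, and none of CAAAACA. Windows of Igf2, Grb10 and Pik3r1 also held TGACG.

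Of all 32851 windows in the table, 7.15% held CACGTG, 6.28% CAAAACA, 20.8% TGACG, 1.79% TGACGTCA and 3.65% GTAAACA. Both of the first pair were present in 134 windows (0.408%), and in 9 windows of 8 genes their starts lay within 7 bases of each other. That distance was chosen after the Irs1 and Irs2 windows were read. Because the core is longer than the E-box, a cut on starts keeps the Irs2 spacing in its own orientation only. Any window with the mirror image of that spacing was not counted. Among those 8 genes was Irs4, another adaptor gene of the family, on the X chromosome, whose counts were 0 in all 4 libraries. The stretches of the 3 adaptor genes are printed together, with both motifs in capitals. In each the E-box, which reads the same on both strands, comes first and the core follows on the reverse strand. Their spacing differs: the starts lie 7 bases apart in Irs2 and Irs4, and 4 in Irs1, where the motifs are fused.
Irs2: cgcagagtCACGTGtTGTTTTGctcttagt
Irs1: ggctccgtCACGTGTTTTGctcctctg
Irs4: gcgacggtCACGTGtTGTTTTGcccactgc
In the other 6 windows the insulin response core lay on the other strand and overlapped the start of the E-box. Because the E-box reads the same on both strands, these 6 windows hold the fused letters of Irs1, read from the opposite strand. They differ in orientation from Irs1, and in spacing from Irs2 and Irs4. All of the sites described are matches of letters, and no binding was measured.

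Irs2, at chr8:10984681-11008929 on mm10, encodes the adaptor that carries much of the metabolic signal of insulin in liver and pancreatic islets. It stood at 23.7 TPM with clenbuterol and 8.99 TPM in the clenbuterol control, and at 8.14 TPM in titled EPS and 11.2 TPM in titled EPS control. The counts were 2304, 888, 863 and 1044 in the same order of libraries. The clenbuterol library stood above the other 3, which lay between 8.14 and 11.2 TPM. In CPM, counts scaled to equal library size with TMM factors, Irs2 was 2.67-fold higher with clenbuterol (2.47 to 2.89). Ranges in brackets after a fold are exact Clopper-Pearson 95% intervals, which cover counting error only. That ratio was the 134th highest of 13788 genes with at least 1 TPM in either library of the pair. Between the 2 controls by title, Irs2 was 1.21-fold higher in titled EPS control than in the clenbuterol control (1.10 to 1.32). If the data names are correct, titled EPS is the untreated library of its pair, and Irs2 there was 1.11-fold lower than in the clenbuterol control (1.01 to 1.22). In the EPS pair Irs2 was 1.34-fold lower by title (1.22 to 1.47).

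Irs1, at chr1:82233105-82291439, encodes the adaptor best known for insulin and IGF1 signalling in skeletal muscle. It stood at 18.1 TPM with clenbuterol and 22.9 TPM in the clenbuterol control, and at 40.1 TPM in titled EPS and 34.7 TPM in titled EPS control. Counts were 2373, 3049, 5741 and 4368. Irs1 was thus 1.25-fold lower with clenbuterol (1.18 to 1.32) and 1.19-fold higher by title under EPS (1.14 to 1.23), opposite in direction to Irs2 in both pairs. Its ratio over the clenbuterol control was 1.47 in titled EPS control (1.40 to 1.54) and 1.75 in titled EPS (1.67 to 1.82). On either reading of the titles, the gap between the 2 controls was thus larger than the difference within either pair.

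Set side by side per length, the adaptors stood in opposite order with clenbuterol and elsewhere. Irs2 made up 56.7% of the summed Irs1 and Irs2 TPM with clenbuterol, 28.2% in the clenbuterol control, 16.9% in titled EPS and 24.4% in titled EPS control. Irs2 was the more abundant of the pair with clenbuterol, at 1.31 times the Irs1 level, and Irs1 was so in the other 3 libraries, at 2.55 times the Irs2 level in the clenbuterol control. The summed level was 41.7 TPM with clenbuterol, 31.9 TPM in its control, 48.3 TPM in titled EPS and 45.9 TPM in titled EPS control.

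**Figure D1:**
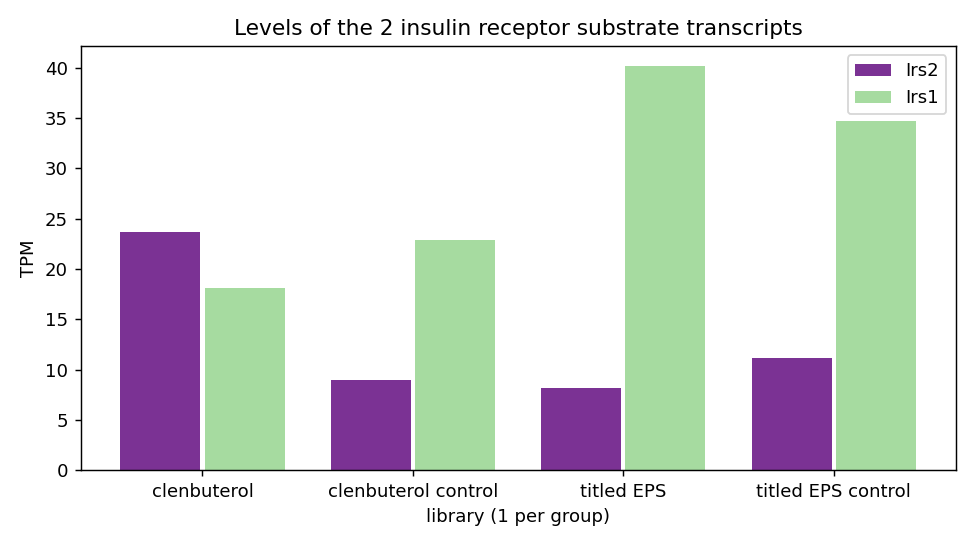
Bars give the TPM of Irs2 and Irs1 in each of the 4 libraries, 1 library per group, so no error bar can be drawn. With clenbuterol Irs2 (23.7 TPM) stands above Irs1 (18.1 TPM), while Irs1 is the taller bar in the other 3 libraries.

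Pik3r1, at chr13:101680761-101768217, encodes the p85α family of regulatory subunits, which dock PI3-kinase on phosphorylated IRS proteins. It stood at 23.4 TPM with clenbuterol and 18.7 TPM in the clenbuterol control, and at 30.1 TPM in titled EPS and 29.9 TPM in titled EPS control. Both EPS libraries lay above both clenbuterol libraries. Within pairs Pik3r1 was 1.26-fold higher with clenbuterol (1.18 to 1.34), on 2331 and 1908 counts, and 1.03-fold higher by title under EPS (0.981 to 1.09). Over the clenbuterol control Pik3r1 was 1.53-fold higher in titled EPS control (1.44 to 1.62) and 1.57-fold higher in titled EPS (1.49 to 1.67), on either reading more than the difference with clenbuterol. The gene totals do not separate p85α from the shorter products of the internal promoters.

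Of the 9 genes that passed the filter, 1 was at least 2-fold higher in CPM with clenbuterol and 0 lower, against 1.88% and 1.11% of all tested genes. Under EPS, by title, 0 of 9 were at least 2-fold higher and 0 lower, against 1.53% and 2.26%. Much of that background was lost with 1 added to each CPM, a setting added after the data were seen. The shares with clenbuterol were then 0.442% higher and 0.0943% lower, and under EPS 0.275% higher and 0.542% lower. The median log2 CPM ratio of the 9 genes was 0.12 with clenbuterol and −0.09 under EPS by title, beside 0.01 over all tested genes in either pair.

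**Figure D2:**
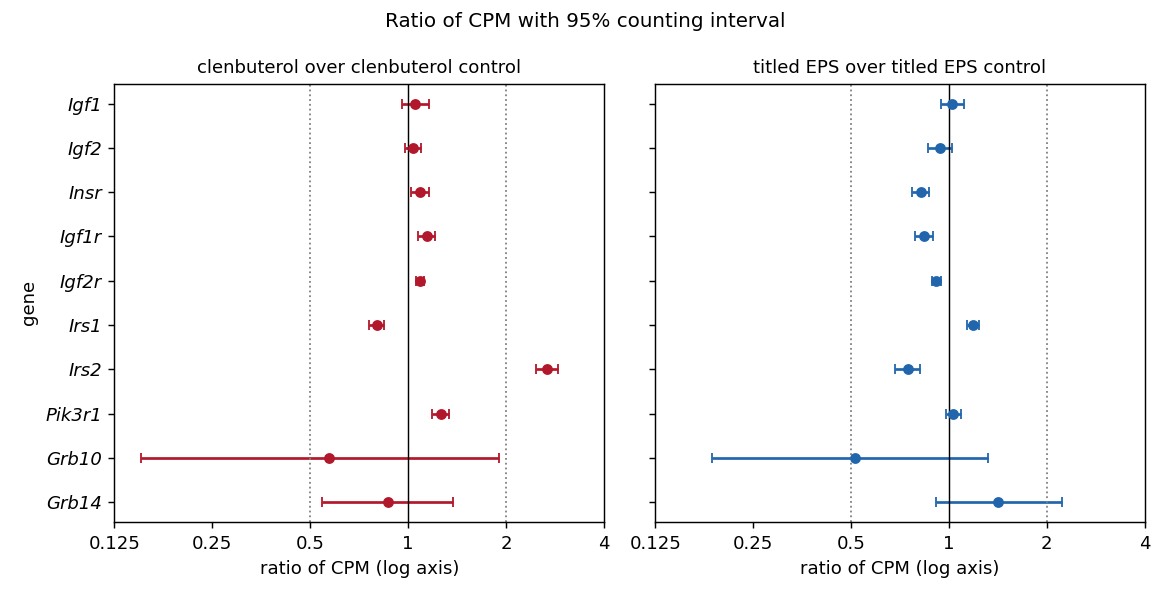
Points give the ratio of CPM on a log axis for the 10 genes, clenbuterol over its control on the left and titled EPS over titled EPS control on the right. Bars are 95% counting intervals and dotted lines mark 2-fold. Irs2 with clenbuterol is the only point whose interval lies beyond a dotted line, and Grb10 and Grb14 have the widest intervals.

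The 3 receptors differed by no more than 1.22-fold within either pair. Insr, the insulin receptor gene at chr8:3150922-3279649, stood at 15.7 TPM with clenbuterol and 14.6 TPM in the clenbuterol control, and at 14.4 TPM in titled EPS and 18.1 TPM in titled EPS control. Igf1r, the receptor of IGF1 at chr7:67952257-68233668, stood at 12.7 TPM with clenbuterol and 11.3 TPM in the clenbuterol control, and at 10.8 TPM in titled EPS and 13.2 TPM in titled EPS control. In TPM titled EPS control was the highest library for both genes and titled EPS the lowest, with the clenbuterol pair between them. In CPM the clenbuterol library and titled EPS control were level for Igf1r (66.8 and 66.6 CPM). With clenbuterol Insr was 1.09-fold higher (1.02 to 1.16) and Igf1r 1.14-fold higher (1.07 to 1.21). By title under EPS, Insr was 1.22-fold lower (1.15 to 1.29) and Igf1r 1.19-fold lower (1.12 to 1.27). The balance of these receptor kinases hardly moved: Insr stood at 1.24 times the Igf1r level with clenbuterol, 1.30 in its control, 1.34 in titled EPS and 1.37 in titled EPS control. Spliced forms of Insr are not separated in gene totals.

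Igf2r, the scavenging receptor at chr17:12682406-12769706, was the most abundant of the 10 genes in every library. It stood at 66.9 TPM with clenbuterol and 62.3 TPM in the clenbuterol control, and at 52.2 TPM in titled EPS and 58.5 TPM in titled EPS control. It was 1.09-fold higher with clenbuterol (1.06 to 1.12) and 1.09-fold lower by title under EPS (1.06 to 1.13). Its level was between 4.44 and 5.52 times that of Igf1r. Airn, the noncoding RNA whose transcription silences the paternal copy of Igf2r, overlaps it on the opposite strand. Airn had 60 counts with clenbuterol and 90 in the clenbuterol control, and 52 in titled EPS and 62 in titled EPS control. Beside the 7178 to 8558 counts of Igf2r this is few, and whether the counting used strand is not stated.

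**Figure D3:**
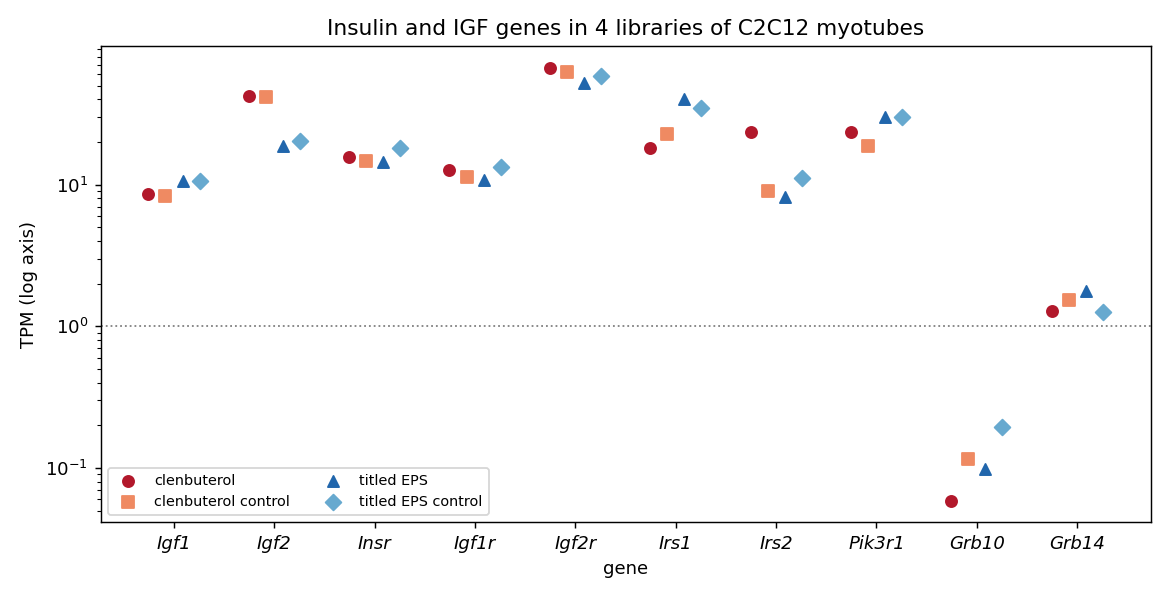
Points give the level in TPM on a log axis of each of the 10 genes in the 4 libraries, with a dotted line at 1 TPM, the filter used for ratios. Igf2r is highest throughout, Igf2 is lower in both EPS libraries than in both clenbuterol libraries, and Grb10 lies below the line in all 4.

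The ligands differed little within pairs, and Igf2 differed between them. Igf2, the fetal growth factor gene that myoblasts turn on as they differentiate, lies at chr7:142650768-142666816. It stood at 42.0 TPM with clenbuterol and 41.3 TPM in the clenbuterol control, and at 18.7 TPM in titled EPS and 20.4 TPM in titled EPS control. The pairs did not overlap, and each pair was tight. Within pairs the ratio of CPM was 1.03 with clenbuterol (0.975 to 1.10) and 0.939 by title under EPS (0.862 to 1.02), and both intervals include 1.

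Across pairs Igf2 was lower in each EPS library than in each clenbuterol library, from 2.09-fold (titled EPS control against the clenbuterol control, 1.94 to 2.25) to 2.30-fold (titled EPS against clenbuterol, 2.14 to 2.47). The 4 ratios share libraries and are not independent. Of all tested genes, the share at least 2-fold lower was 3.78% in titled EPS against clenbuterol, 3.17% in titled EPS against the clenbuterol control, 3.74% in titled EPS control against clenbuterol and 2.76% in titled EPS control against the clenbuterol control. Igf2 was in that share each time. Irs2 was at least 2-fold lower in both EPS libraries than in the clenbuterol library, and Irs1 at least 2-fold higher only in titled EPS against clenbuterol (2.18-fold, 2.08 to 2.29), where 2.58% of tested genes were. The share at least 2-fold higher was 2.48% in titled EPS against the clenbuterol control, 3.18% in titled EPS control against clenbuterol and 3.09% between the controls, and none of the 9 genes was in it there. The summed myotube markers given above were also lower in both EPS libraries than in either clenbuterol library. Acta1 and Actn2 did not follow the sum, and were highest in titled EPS control (9090 and 44.0 TPM). Summed markers of undifferentiated or dividing myoblasts overlapped between the pairs. They came to 283 TPM in titled EPS, 240.5 in titled EPS control, 314 with clenbuterol and 242 in its control. Single members of that list were mixed. Mki67 stood at 29.1 TPM with clenbuterol and 31.9 TPM in the clenbuterol control, and at 49.4 TPM in titled EPS and 45.6 TPM in titled EPS control. Top2a, Ccnb1 and Myf5 were likewise higher in both EPS libraries than in either clenbuterol library, Id1 and Id3 were lower, and Pax7 overlapped. The part of these markers in the Igf2 difference was not tested. Treatment, culture and the pair a library belongs to cannot be told apart across pairs.

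**Figure D4:**
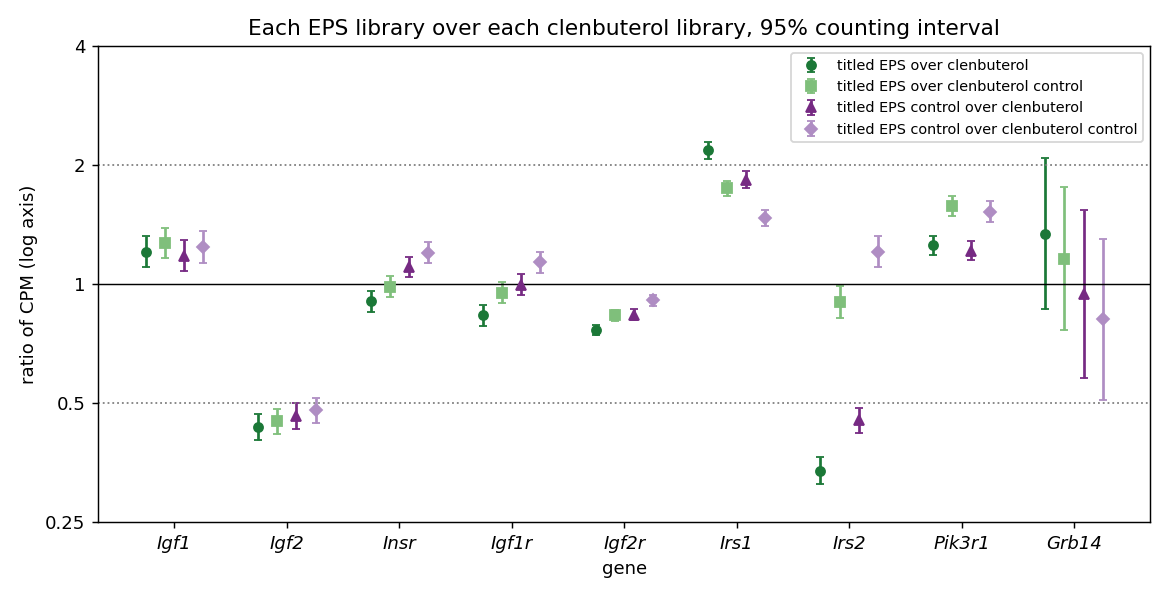
Points give the ratio of CPM on a log axis for each EPS library over each clenbuterol library, for the 9 genes that reach 1 TPM, with 95% counting intervals and dotted lines at 2-fold. All 4 Igf2 points lie below the lower dotted line, whereas the Irs1, Pik3r1 and Igf1 points all lie above 1.

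H19, the noncoding neighbour that shares enhancers with Igf2 on the opposite parental copy, stood at 4755 TPM with clenbuterol and 4789 TPM in the clenbuterol control, and at 3315 TPM in titled EPS and 3769 TPM in titled EPS control. It too was lower in both EPS libraries. Igf2os, antisense to Igf2, had 12 counts with clenbuterol and 4 in the clenbuterol control, and 0 in titled EPS and 9 in titled EPS control. Mir483, inside Igf2, had no more than 2 counts, and poly(A) libraries are a poor measure of such small RNAs.

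Igf1, the growth factor gene at chr10:87858265-87937047 that mediates much of the local action of growth hormone, was less abundant than Igf2. It stood at 8.62 TPM with clenbuterol and 8.33 TPM in the clenbuterol control, and at 10.6 TPM in both EPS libraries. The ratio of CPM was 1.05 with clenbuterol (0.956 to 1.16) and 1.03 by title under EPS (0.942 to 1.12). Both intervals include 1. Igf2 stood at 4.87 times the Igf1 level with clenbuterol, 4.96 in its control, 1.76 in titled EPS and 1.92 in titled EPS control. This balance differed between pairs and was close within each.

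Grb14 (chr2:64912476-65022766) and Grb10 (chr11:11930499-12037428) encode adaptors that bind the activated insulin and IGF1 receptors and restrain their kinases. Both were scarce. Grb14 stood at 1.28 TPM with clenbuterol and 1.53 TPM in the clenbuterol control, and at 1.76 TPM in titled EPS and 1.27 TPM in titled EPS control, on 37, 44, 55 and 35 counts. Its ratios, 0.865 with clenbuterol (0.543 to 1.37) and 1.42 by title under EPS (0.912 to 2.23), have intervals that include 1. Grb10 had 5 counts with clenbuterol and 9 in the clenbuterol control, and 8 in titled EPS and 14 in titled EPS control. Its level was at most 0.195 TPM, it did not pass the filter, and no difference was detectable at this depth.

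Beyond the 10 genes, 67 other genes of the pathway were listed by role. With clenbuterol 57 passed the filter, of which 1 was at least 2-fold higher and 0 lower, and the median log2 ratio was 0.03. By title under EPS 56 passed, of which 0 were at least 2-fold higher and 1 lower, with a median of −0.08. These shares are near the backgrounds given above.

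The pathway gene past 2-fold with clenbuterol was Sgk1, which encodes a kinase that PI3-kinase signalling activates alongside AKT. Sgk1 stood at 258 TPM with clenbuterol and 120 TPM in the clenbuterol control, and at 105 TPM in titled EPS and 92.8 TPM in titled EPS control. Clenbuterol was the library apart. The difference was 2.17-fold (2.09 to 2.25). Akt1 and Akt2, kinases at the centre of the route, had ratios of 1.04 and 1.02 with clenbuterol.

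The pathway gene past 2-fold under EPS was Fbxo40, which encodes a muscle F-box protein described as marking IRS1 for degradation after IGF1 stimulation. Fbxo40 stood at 18.5 TPM with clenbuterol and 19.2 TPM in the clenbuterol control, and at 11.2 TPM in titled EPS and 30.5 TPM in titled EPS control. The EPS libraries thus lay on either side of the clenbuterol pair. By title Fbxo40 was 2.68-fold lower (2.48 to 2.90). The Irs1 transcript was 1.19-fold higher in that pair. IRS1 protein was not measured, and a link between these genes was not tested. Of the myotube markers, 13 of 14 had ratios below 1 in the EPS pair, with a median log2 ratio of −0.41. Of the myoblast markers, 6 of 7 had ratios above 1. Among all 13828 tested genes, 6720 had ratios below 1 and 7108 above it. The part of either marker list in the Fbxo40 difference was not tested. The other IRS1 ligase genes had EPS ratios of 0.781 (Trim72, of muscle membrane repair), 1.02 (Fbxw8) and 1.02 (Cul7).

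Other roles were steadier with clenbuterol. Other adaptors ranged in log2 ratio from −0.05 to 0.14 with clenbuterol (7 tested). PI3-kinase subunit genes ranged from −0.04 to 0.06 with clenbuterol (5 tested) and from −0.43 to 0.36 under EPS, where Pik3r3, the p55γ subunit gene, was highest at 1.29-fold (1.21 to 1.37).

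Among 13 phosphatase and other brake genes, Socs3, a feedback inhibitor of cytokine and insulin receptors, had the highest ratio with clenbuterol at 1.49-fold (1.41 to 1.57). Trib3, a pseudokinase that binds AKT, was 1.24-fold lower with clenbuterol (1.09 to 1.40) and 1.55-fold higher by title under EPS (1.45 to 1.65). Trib3 stood at 15.5 TPM with clenbuterol and 19.5 TPM in the clenbuterol control, and at 81.2 TPM in titled EPS and 53.8 TPM in titled EPS control, both EPS libraries being the higher ones.

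Among genes that free or bind IGFs or the IGF2 mRNA, Stc2, an inhibitor of the IGF-releasing protease, was 1.5-fold lower with clenbuterol (1.19 to 1.89) on 125 and 193 counts. Pappa, which encodes that protease, was 1.48-fold higher by title under EPS (1.36 to 1.61). Igf2bp2, a binder of IGF2 mRNA, was 1.63-fold lower by title under EPS (1.48 to 1.79). Ins2, one of the mouse insulin genes, was listed at 2.45 to 5.91 TPM on 21 to 50 counts. Ins1, the other insulin gene, and the receptor gene Insrr had 0 counts in every library, which allows up to 3 counts each.

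**Figure D5:**
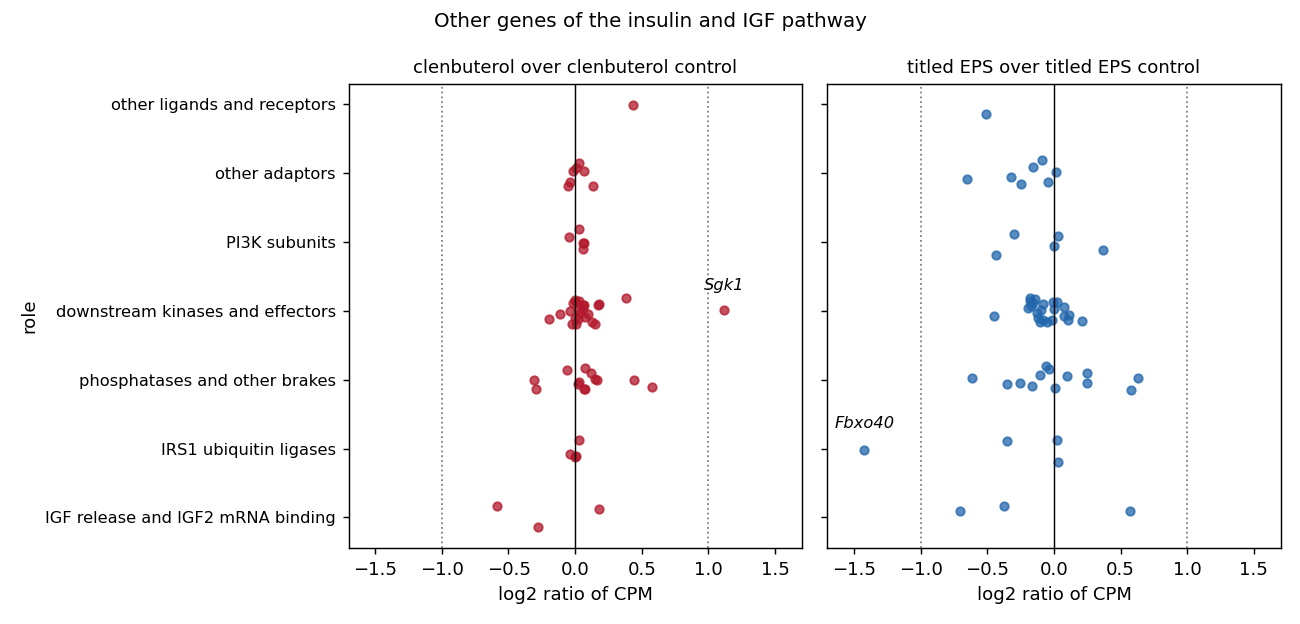
Points are single pathway genes that passed the filter, placed by log2 ratio of CPM and grouped by role, clenbuterol over its control on the left and titled EPS over titled EPS control on the right. Points are spread up and down at random within a role, and dotted lines mark 2-fold. Sgk1 on the left and Fbxo40 on the right are the only points past them.

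The genes whose pattern over the 4 libraries lay nearest to that of Irs2 were Plaur, Tiparp, Foxc2, Cbarp and Dusp10. Likeness was the distance between log2(TPM + 1) values centred on each gene's mean. It was ranked over 10394 genes with at least 5 TPM in some library, with Gm, LOC, Rik, Mir and Snor names among those left out. It ran from 0.104 for Plaur, the urokinase receptor gene, to 0.29 for Dusp10, a MAP kinase phosphatase gene. Plaur stood at 37.2 TPM with clenbuterol and 13.8 TPM in the clenbuterol control, and at 13.8 TPM in titled EPS and 17.1 TPM in titled EPS control. With clenbuterol the 5 genes were 2.28-fold to 2.67-fold higher, which the choice by likeness to Irs2 fixes in direction.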

How the data were processed

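Poly(A) RNA of 4 libraries was sequenced after a strand-specific TruSeq preparation, per the labels' protocols. Reads were aligned with HISAT2 to mm10, per the submitters' processing notes. For the quantifier, its annotation and any use of strand in counting, nothing is stated. The authors deposited estimated counts, FPKM and TPM per gene in a joint table, and coverage (a signal, the mean depth per base), FPKM and TPM in a table per library. Joint and single tables gave the same TPM within 0.001 for all 10 genes. From these, CPM were computed with TMM factors (edgeR 4.0.16, R 4.3.3) and ratios with exact Clopper-Pearson 95% intervals, in Python 3.11.15 with numpy 2.4.6, pandas 2.3.3, scipy 1.17.1 and matplotlib 3.10.9. Ratios were counted over genes with at least 1 TPM in either library of a pair. The ratio script was tested on simulated data. Spread between cultures could not be measured with 1 library per group, and intervals and the floor of 3 counts cover counting error only. If mates were counted singly, the intervals are too narrow.

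Main ratios used CPM because only counts carry an interval. Alternatives were TPM with pseudocounts of 0.1, 1 and 5, FPKM, plain totals, DESeq2 1.42.0 size factors, no filter and a filter at 5 TPM. The genes and lists were chosen with earlier results of these data known. Named pathway genes are those past 2-fold, with the 2 highest and 2 lowest of each role as the pool of examples, and Akt1, Akt2, Fbxw8 and Cul7 were added after their values were seen. For Irs2, the 5 genes nearest in pattern are named. Values of some pathway genes are not reported here.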

Additional observations from a re-analysis of the deposited data

How the results depend on the processing

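With 1 library per group no value here has a replicate, and no replicate could be left out. No paired analysis was possible because each group holds 1 library and the labels number no replicates. Of 140 ratios of single genes under alternatives that can change a ratio, 135 stayed within the counting interval of the reported value and 5 left it. Irs2 with clenbuterol was 2.27-fold higher in FPKM plus 1 and 2.05-fold higher in TPM plus 5. Irs1 under EPS by title stood at 1.14 in TPM plus 5, and Fbxo40 at 0.430 and 0.456 in FPKM plus 1 and TPM plus 5. Igf1 under EPS crossed 1 in TPM, at 0.998 with a pseudocount of 1. The number of the 10 genes past 2-fold stayed the same under every alternative run, at 1 higher with clenbuterol.

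Counts over all genes followed the treatment of low values. In the order clenbuterol higher, clenbuterol lower, EPS higher and EPS lower by title, the counts reported were 259, 153, 211 and 312. They were 138, 71, 120 and 158 in TPM plus 1, and 54, 10, 38 and 59 in FPKM plus 1. They were 41, 2, 9 and 36 in TPM plus 5, and 61, 13, 38 and 75 in CPM plus 1, chosen after seeing the data. They were 72, 14, 50 and 81 with a filter at 5 TPM, and 2278, 2173, 2285 and 2368 with no filter. With no filter, pathway genes past 2-fold were 2 higher with clenbuterol, and 1 higher and 3 lower under EPS, through genes of very few counts.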
